A study of Mus musculus with 38 samples.

Results

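The SOX2 sites at the starts of protein-coding genes were 820 of the 15081 SOX2 intervals used in the series (5.44%). The study took its SOX2 intervals from earlier literature, not from peaks of these libraries. The 820 were chosen by position. Each interval lies within 1 kb of, or over, a transcript start of a protein-coding gene in the GENCODE M21 basic annotation of mm10, and overlaps no HSF1 or HSF2 interval by even 1 bp. Of the 1037 SOX2 intervals near a coding start, 217 overlapped a site of HSF1 or HSF2, the heat shock transcription factors of the same study, and were set aside as a comparison. A further 13477 SOX2 intervals were away from coding starts and free of HSF overlap, and these are called distal sites. No SOX2 signal value entered the choice. HSF signal entered it indirectly, since the study called its HSF1 and HSF2 sites as peaks of their CUT&Tag signal.

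The study asked how transcription factors meet mitotic chromosomes in mouse embryonic stem cells. SOX2 was profiled by CUT&Tag, in which a Tn5 transposase tethered to an antibody cuts and tags the DNA beside the bound protein, in JM8 cells with no edited allele named in the labels. For SOX2, 2 libraries came from asynchronous cells (A) and 2 from mitotic cells (M), out of 38 libraries in the series. The mitotic cells had been held in 50 ng/ml nocodazole, a drug that depolymerises microtubules, for 6 h and were then shaken off the plate, whereas the labels list no drug for the asynchronous culture, which holds all phases of the cycle. Both deposited columns are averages over the libraries of a phase, so no value below has an error between libraries, no test between A and M could be made, and the values do not show the read depth behind them. Signal means coverage per base, scaled to Drosophila spike-in reads and averaged over an interval, so that intervals of different width are on one scale. The study's methods describe a further step in which asynchronous samples were set to 1, and whether it was applied to these SOX2 tracks is not clear. An error of scale in either averaged track would move every log2 M/A by one amount, and with it each count of sites higher in mitotic cells or past a 2-fold difference. The spike-in was added in proportion to cell number, and the signal was not corrected for DNA content, which differs between phases of the cycle. An interval given for a median or share covers the spread over sites only.

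SOX2 is a transcription factor with a single HMG box, a domain that binds the minor groove and bends the DNA. In embryonic stem cells it binds next to OCT4 on composite elements and, with NANOG, ESRRB and others, keeps the pluripotency genes active. Most of its binding is at enhancers far from genes, and its sites at promoters are the smaller class. Promoters of coding genes differ from enhancers in composition, being richer in CpG and in elements such as the GC box bound by SP factors, the CCAAT box bound by NF-Y and the ETS element. During mitosis transcription is largely silent, and some factors stay on the condensed chromosomes.

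The sequences of a few sites are shown because the number of SOX motifs goes with the values reported further on. A SOX motif is here ACAAAG or ACAATG, read on either strand, so that it also appears as CTTTGT or CATTGT. All sequences are the plus strand of mm10 (GRCm38, the RefSeq copy), 5′ to 3′. In the first set, the central 200 bp of 4 sites with 3 or more motifs, capitals mark every SOX motif. Mobp encodes a protein of the myelin sheath, Camta1 a calmodulin-binding transcription activator, Vcp the ATPase p97, and Otx2 a homeodomain factor of the epiblast and forebrain. Mobp had 7 motifs in this window and the other 3 sites had 3 each.
Mobp (chr9:120149466-120149665): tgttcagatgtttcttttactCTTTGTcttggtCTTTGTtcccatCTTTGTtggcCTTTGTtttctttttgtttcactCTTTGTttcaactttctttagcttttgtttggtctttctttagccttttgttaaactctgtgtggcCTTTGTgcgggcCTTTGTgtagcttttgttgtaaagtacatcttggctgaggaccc
Camta1 (chr4:151128701-151128900): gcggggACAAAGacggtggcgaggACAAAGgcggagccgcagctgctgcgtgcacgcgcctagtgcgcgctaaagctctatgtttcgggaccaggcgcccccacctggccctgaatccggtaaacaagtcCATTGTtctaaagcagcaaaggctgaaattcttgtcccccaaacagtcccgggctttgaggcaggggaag
Vcp (chr4:43000639-43000838): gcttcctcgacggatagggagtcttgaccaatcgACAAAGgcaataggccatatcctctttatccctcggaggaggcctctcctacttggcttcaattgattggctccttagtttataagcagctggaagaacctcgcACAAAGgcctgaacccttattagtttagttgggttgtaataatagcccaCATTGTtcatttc
Otx2 (chr14:48662975-48663174): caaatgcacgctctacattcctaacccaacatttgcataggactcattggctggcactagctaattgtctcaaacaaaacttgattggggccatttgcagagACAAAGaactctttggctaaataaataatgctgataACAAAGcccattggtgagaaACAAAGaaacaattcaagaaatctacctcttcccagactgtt

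A second set shows the SOX-OCT composite, the element on which SOX2 and OCT4 sit side by side, searched as TTGTNATGC on either strand and shown in capitals with the flanking bases. Its first letters can be the same as the last ones of a SOX motif. For these sequences the composite was searched over the whole interval, whereas the counts further on use the central 200 bp. Nanog and Dppa4 stand outside the rule for named genes and were chosen after their values had been seen, for this element. The element lay 68 bp upstream of the start of Nanog, the homeobox gene of naive pluripotency, 72 bp upstream of Dppa4, a chromatin-bound protein of early embryos, 175 bp upstream of Hoxb1, a hindbrain homeobox gene, and 1145 bp upstream of Lefty1, an extracellular antagonist of NODAL.
Nanog (chr6:122707387-122707455): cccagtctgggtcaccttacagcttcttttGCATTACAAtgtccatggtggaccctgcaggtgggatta
Dppa4 (chr16:48283629-48283697): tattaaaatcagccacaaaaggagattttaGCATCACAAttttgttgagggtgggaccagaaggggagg
Hoxb1 (chr11:96365543-96365611): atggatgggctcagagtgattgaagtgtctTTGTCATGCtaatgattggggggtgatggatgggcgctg
Lefty1 (chr1:180933843-180933911): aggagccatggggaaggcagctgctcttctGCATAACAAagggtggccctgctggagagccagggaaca

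The third set shows the SOX motif nearest the interval's midpoint, in capitals, at sites with a high signal or a large mitotic excess. All sites of this set were higher in mitotic cells, and they do not stand for all sites with a motif. Of the 384 sites with a motif in the central 200 bp and signal in both phases, 92 (24.0%) were lower in mitotic cells, beside 36.6% over all SOX2 sites. Nr5a2, Rps9 and Tet1 are among the 92 and are not printed. The windows at C2cd3, Gstm7, Rpl18 and Mkrn1 are shorter because exons lie next to them. Upstream distances of the motif were 120 bp at Paip2b, 854 bp at Slc25a1, 176 bp at Btf3l4, 162 bp at Acot9, 98 bp at C2cd3, 28 bp at Gstm7, 2 bp at Rpl18, 370 bp at Mkrn1, 156 bp at Mtf2 and 118 bp at Zfp710. At Arhgap42 it lay 534 bp downstream, in an intron.
Paip2b (chr6:83831829-83831894): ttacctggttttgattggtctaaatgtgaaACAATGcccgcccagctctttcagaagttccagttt
Slc25a1 (chr16:17929041-17929106): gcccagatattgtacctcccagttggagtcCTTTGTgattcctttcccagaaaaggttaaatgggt
Btf3l4 (chr4:108833758-108833823): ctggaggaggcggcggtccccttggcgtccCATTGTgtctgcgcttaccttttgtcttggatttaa
Acot9 (chrX:155262249-155262314): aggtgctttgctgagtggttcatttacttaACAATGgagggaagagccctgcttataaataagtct
Arhgap42 (chr9:9238460-9238525): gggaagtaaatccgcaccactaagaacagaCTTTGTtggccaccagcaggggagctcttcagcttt
C2cd3 (chr7:100372121-100372150): aatgcatgctggACAATGaagtcctcaaat
Gstm7 (chr3:107931830-107931859): ctgcctgagctcCATTGTtatggtggtggc
Rpl18 (chr7:45715441-45715470): ttatcccgccatCTTTGTtgaggtcaaaac
Mkrn1 (chr6:39420817-39420846): gacttgagtatcACAATGgctgcaagttcg
Mtf2 (chr5:108065553-108065618): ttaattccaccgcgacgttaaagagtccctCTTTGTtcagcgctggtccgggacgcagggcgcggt
Zfp710 (chr7:80024664-80024729): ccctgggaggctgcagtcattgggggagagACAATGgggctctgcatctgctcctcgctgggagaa

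The 820 sites lay near the starts of 849 coding genes of the 21924 annotated (3.87%), and 60 sites served 2 genes each. The interval contained a start in 211 cases (25.7%). Midpoints were upstream of the nearest start at 595 sites (72.6%), with a median of 105 bp upstream. They were densest just before the start, with 306 midpoints in the 200 bp upstream and 54 in the 200 bp downstream of it. The midpoint fell outside annotated genes at 377 sites, in an intron at 323, in a UTR at 85, in an exon of a non-coding transcript at 25 and in coding sequence at 10. Intervals were 224 bp wide at the median (quartiles 124 and 299 bp). Another SOX2 site of any class lay within 10 kb of 221 sites (27.0%).

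**Figure D1:**
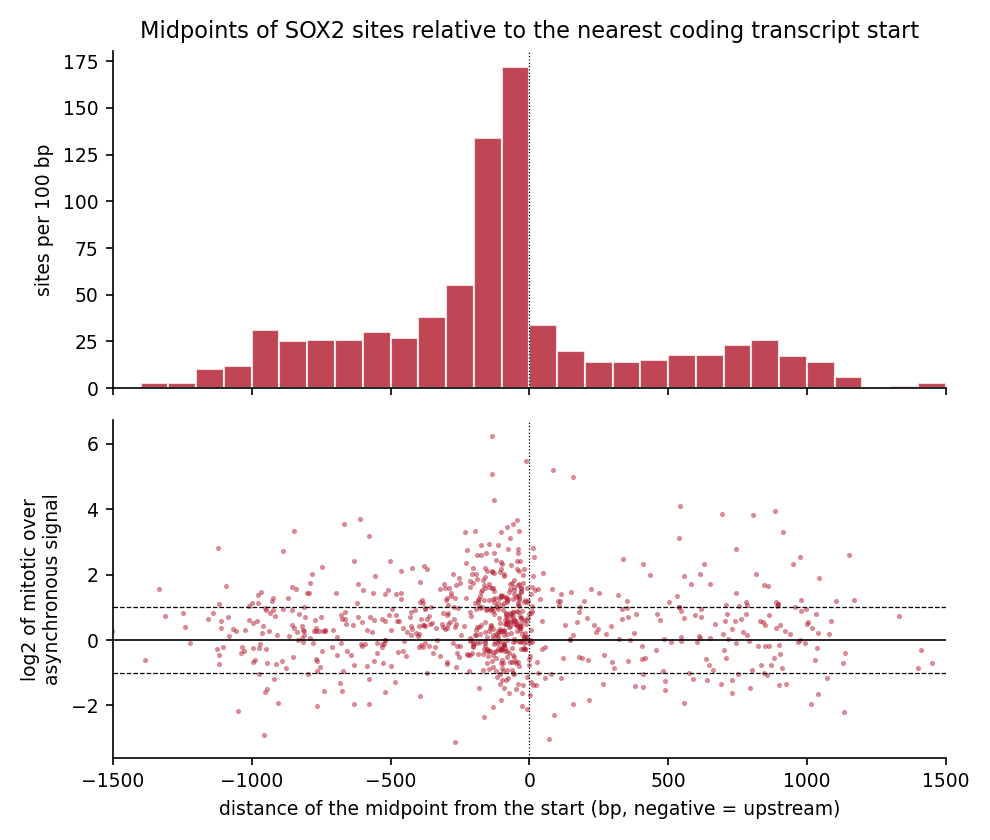
The upper panel counts site midpoints per 100 bp by distance from the nearest coding transcript start (negative is upstream), and the lower panel plots log2 of mitotic over asynchronous signal for each site against the same distance, with dashed lines at 1 and −1. The 2 tallest bars, 134 and 172 sites, are the 2 just upstream of the start, and 5 sites with midpoints beyond 1500 bp are not drawn.

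Signal at coding starts was moderate. The median was 10.3 in A (quartiles 4.78 and 18.8) and 13.3 in M (quartiles 5.87 and 27.0). Distal sites had medians of 8.12 in A and 9.83 in M. The 217 coding-start sites that also overlapped an HSF site had 26.2 in A and 32.0 in M, the highest of the 3 classes. The IgG libraries of the series were not used, so no background level stands beside these values. The paper could not fully exclude a preference of the Tn5 fusion for open chromatin, which was not tested here. In A, 56.3% of the coding-start sites exceeded the median of all SOX2 sites.

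Signal was above 0 in both phases at 800 of the 820 sites. The other 20 had no signal in A, and 1 of them none in M either. These 20 intervals were narrow, with a median width of 49 bp, and their M signal reached at most 12.9. The log2 of mitotic over asynchronous signal (log2 M/A) could be taken at the 800 and had a median of 0.43 (95% order-statistic interval over sites 0.34 to 0.52, quartiles −0.26 and 1.18). The median was 0.34 at distal sites (0.31 to 0.36) and 0.27 at the HSF-overlapping ones (0.18 to 0.50). The median at coding starts exceeded that of all other SOX2 sites by 0.10 (0.01 to 0.19 from the interval of the coding-start median alone), and by 0.06 with a pseudocount of 0.1 or 1. This is less than the spread of sites within each class. After centring on the lowest quartile of all SOX2 sites by mean signal, the median at coding starts was 0.17.

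M exceeded A at 522 of the 800 sites (65.3%), beside 63.4% over all SOX2 sites. A log2 M/A of 1 or more, a 2-fold mitotic excess, was found at 242 sites (30.3%), beside 26.8% over all SOX2 sites. A log2 M/A of −1 or less was found at 75 sites (9.38%), beside 10.0% over all. All 3 shares were near those of the whole list. Across the 800 sites, the squared Pearson correlation of log2 M with log2 A was 0.527, a description of points that share both averaged tracks. On linear values it was 0.309, and 0.570 without the 2 repeat sites described next.

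**Figure D2:**
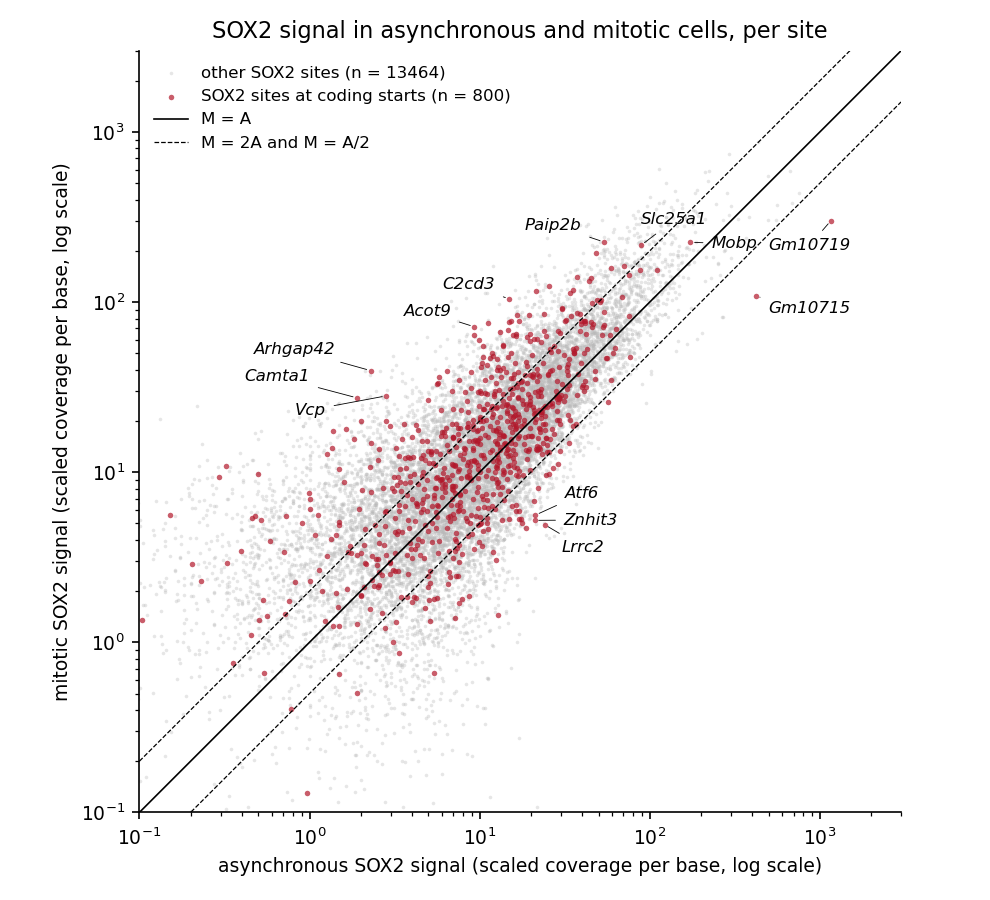
Each point is a SOX2 site, with asynchronous signal on the horizontal and mitotic signal on the vertical log axis (scaled coverage per base), the 800 sites at coding starts in red and 13464 other SOX2 sites in grey. The solid line is equal signal, the dashed lines are 2-fold differences, 242 red points lie on or above the upper one and 75 on or below the lower one, and 4 red and 77 grey points under 0.1 fall outside the axes.

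The 2 sites with the highest mean signal stood apart from all others in A. The interval at Gm10719 and Gm10720, 2 predicted genes at the proximal end of chromosome 9 (3015102 to 3020025), had 1161 in A and 300.9 in M. The one at the neighbouring Gm10715 (3037852 to 3038400) had 420 in A and 108 in M. Both were lower in mitotic cells, with log2 M/A of −1.95 and −1.96, and 95.6% and 87.6% of their bases are soft-masked as repeats in the reference. Reads from copies of a repeat cannot be assigned to one place, so these values are uncertain. Over the 23 sites with more than 50% repeat bases the median log2 M/A was 0.35, beside 0.43 at the other 797.

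The next 7 sites by mean signal that are reported here were all higher in mitotic cells. Mobp had 173 in A and 225 in M. Slc25a1, the mitochondrial citrate carrier, had 89.0 and 216. Paip2b, an inhibitor of poly(A)-binding protein, had 53.8 and 225 (log2 M/A 2.07), and its M was the highest of all sites outside the chromosome 9 repeats. The site shared by Btf3l4 and Txndc12, which encode a relative of a nascent-chain-binding factor and a thioredoxin-like protein of the endoplasmic reticulum, was close to it in size of change, with 48.1 in A and 195 in M. Ggps1, the geranylgeranyl diphosphate synthase, shares its site with Arid4b, a subunit of the SIN3 corepressor (chr13:14063576-14063624), and had 75.2 and 144. Of these 7 sites, 6 had at least 1 SOX motif in the central 200 bp and the Ggps1 site had none.

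The remaining pair, Gm14401 and Gm14393, are predicted genes on chromosome 2 with 110 and 87.9 in A and 155 and 155 in M. Their motif windows of 66 bp share a run of 24 identical bases in opposite orientation, so reads may have been split between copies and both values are uncertain. The windows are given next.
Gm14401 (chr2:177079896-177079961): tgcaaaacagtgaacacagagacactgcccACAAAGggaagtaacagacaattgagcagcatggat
Gm14393 (chr2:175068052-175068117): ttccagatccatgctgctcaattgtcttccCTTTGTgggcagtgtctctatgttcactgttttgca

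The largest mitotic excesses were taken among the 400 sites with an average over both phases of 12.5 or more. Arhgap42, a GTPase-activating protein, went from 2.29 in A to 39.5 in M (log2 M/A 4.11). Camta1 was at 1.90 and 27.3 (3.84) and Vcp at 2.83 and 28.1 (3.31). These 3 sites were weak in A, below the lower quartile of coding-start sites, and above the upper quartile in M. Acot9, a mitochondrial acyl-CoA thioesterase, was at 9.30 and 71.6 (2.94). The start shared by C2cd3, a centriole protein, and Ppme1, the methylesterase of phosphatase 2A, was at 14.9 and 104 (2.80). Gstm7, a glutathione S-transferase, was at 9.24 and 63.7 (2.79). All 6 sites held at least 1 SOX motif in the central 200 bp.

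The largest mitotic deficits in the same range, apart from the 2 chromosome 9 repeats, came from sites above the upper quartile of coding-start sites in A. At Lrrc2, a leucine-rich repeat protein, an interval of 49 bp in the UTR (chr9:110951611-110951659) had 24.1 in A but 4.92 in M (log2 M/A −2.29). Znhit3, a factor of small nucleolar ribonucleoprotein assembly whose interval spans its start (chr11:84916307-84916480), was at 21.0 and 5.21 (−2.01). Atf6, the membrane-tethered sensor of endoplasmic reticulum stress, with an interval 806 bp upstream (chr1:170868577-170868775), was at 21.3 and 5.59 (−1.93). The start shared by Vps52, a subunit of the endosome-to-Golgi tethering complex GARP, and the ribosomal protein gene Rps18 (chr17:33955723-33955846) was at 20.7 and 6.77 (−1.62). None of these sites, nor the 2 repeat sites, held a SOX motif in the central 200 bp.

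Across all sites the motif went with the mitotic excess. A SOX motif was present in the central 200 bp of 392 sites (47.8%, Wilson interval over sites 44.4% to 51.2%), beside 57.2% of distal sites, 44.7% of the HSF-overlapping coding-start sites and 17.4% of the 200 bp upstream of all 41493 coding transcript starts. Sites with a motif had medians of 11.0 in A and 17.5 in M, and those without one 9.77 and 10.8. The median log2 M/A was 0.70 with a motif and 0.17 without, a difference of 0.53. With the looser motif CAANG, present at 89.8% of sites, the difference was 0.32. At distal sites the medians were 0.51 and 0.12. The split by motif was looked for after results of these data had been seen, and it is given as a description.

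The value climbed with the number of motifs. Median log2 M/A was 0.17 with 0 motifs (416 sites), 0.63 with 1 (275), 0.76 with 2 (90) and 1.24 with 3 or more (19). At distal sites the same series was 0.12, 0.40, 0.70 and 0.89. A 2-fold mitotic excess was found at 21.4%, 37.8%, 42.2% and 57.9% of the coding-start sites, and a 2-fold deficit at 12.5%, 6.18%, 5.56% and 5.26%. Seen from the other side, 153 of the 242 sites with a 2-fold excess held a motif (63.2%), as did 23 of the 75 with a 2-fold deficit (30.7%). The form of the motif made little difference, with medians of 0.71 for sites with ACAAAG alone, 0.64 with ACAATG alone and 0.70 with both.

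**Figure D3:**
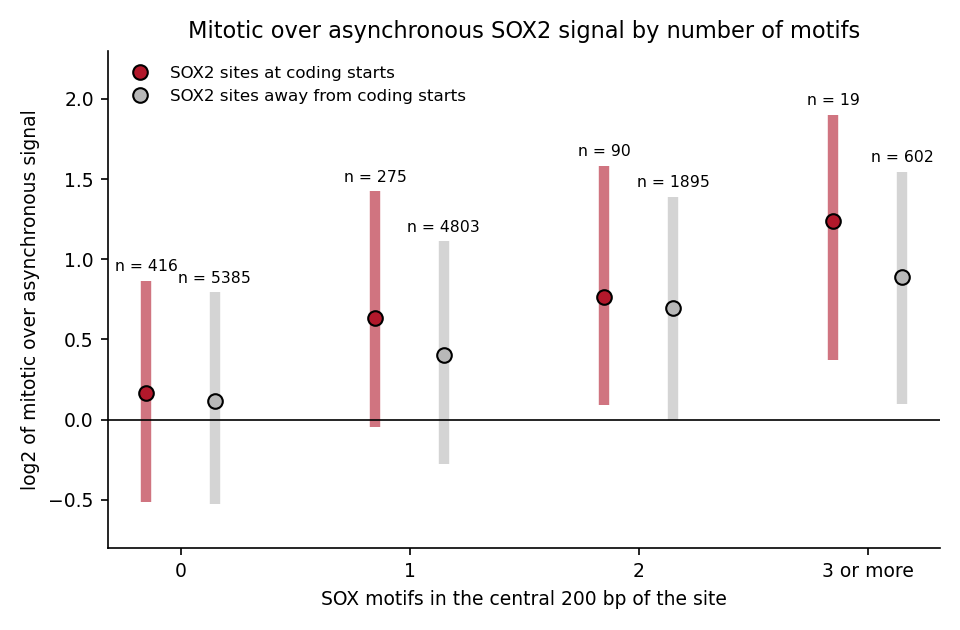
Points are medians and bars are quartiles over sites of log2 of mitotic over asynchronous SOX2 signal, by number of SOX motifs in the central 200 bp, for sites at coding starts (red) and distal sites (grey), with the number of sites above each bar. The red medians go from 0.17 without a motif to 1.24 with 3 or more, and the quartile ranges overlap throughout.

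The difference in medians was present within ranges of signal and of base composition. Coding-start sites were put in 4 equal groups by mean signal. From the weakest to the strongest group the medians with and without a motif were 0.43 and 0.08, 0.56 and 0.17, 0.53 and 0.01, and 1.03 and 0.45. Their intervals over sites overlapped in the weakest group (0.01 to 1.10 and −0.11 to 0.41) and in the next. In the weakest group a 2-fold deficit was found at 19.7% of 71 sites with a motif and 18.3% of 115 without, beside 10.0% over all SOX2 sites. In the other groups the deficit was rarer with a motif. M is part of the mean that set the groups. At sites with GC content up to 49.5% they were 0.51 and 0.07, and at the others 0.87 and 0.28. GC content itself went weakly with log2 M/A, with a Spearman correlation of 0.18 over 800 sites, and the motif number with one of 0.26. The correlation with A was −0.24, where A enters both measures. The part of any of these in the others was not tested.

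Motifs were concentrated at the middle of the sites. In bins of 50 bp, 19.0% and 21.5% of coding-start sites held one on the 2 sides of the midpoint, and between 4.88% and 7.44% in the bins beyond 150 bp. Distal sites peaked at 24.8% over an outer level of 7.35% to 8.21%. The share was thus highest beside the midpoint in both classes.

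**Figure D4:**
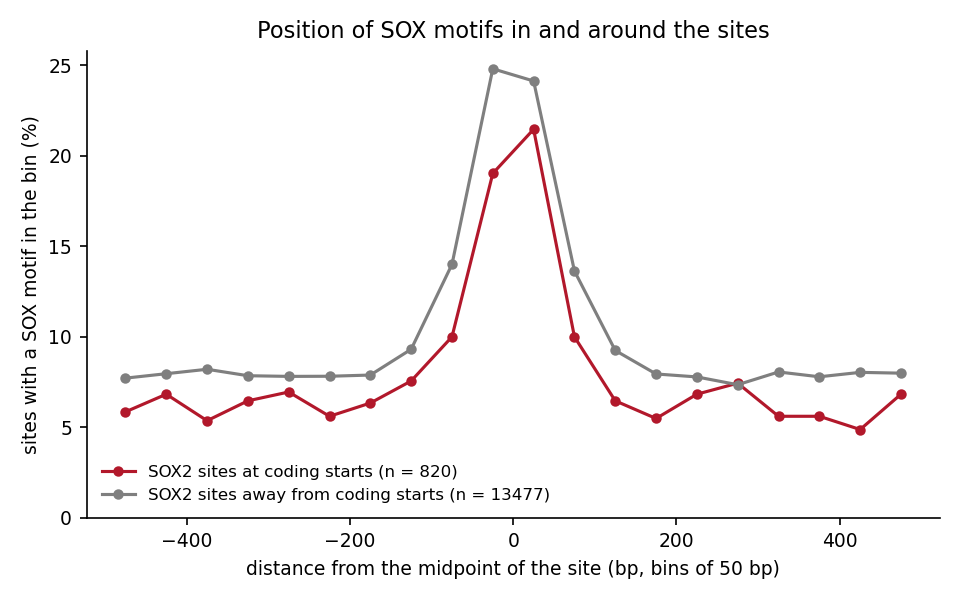
The share of sites with a SOX motif in each bin of 50 bp is plotted against distance from the site's midpoint, for 820 sites at coding starts (red) and 13477 distal sites (grey). Red reaches 21.5% beside the midpoint and grey 24.8%, and both are under 10% beyond 100 bp.

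The SOX-OCT composite was found in the central 200 bp of 38 coding-start sites (4.63%), beside 8.87% of distal sites and 0.569% of coding promoters. Of the 36 measured sites, 18 were higher and 18 lower in mitotic cells, with a 2-fold excess at 6 (16.7%) and a 2-fold deficit at 5 (13.9%). Over all SOX2 sites 63.4% were higher, 26.8% had the excess and 10.0% the deficit. The median log2 M/A of the 36 was −0.02. Its interval over sites, −0.51 to 0.56, includes the 0.44 of the 764 measured sites without the element. At distal sites the medians were 0.30 with and 0.34 without the composite. Of the 38 sites, 25 also held a SOX motif, and their median was 0.08. Nanog, whose composite is printed above, was at 28.6 in A and 20.1 in M. Hoxb1 was at 13.7 and 10.3 and Dppa4 at 11.0 and 6.82. Lefty1, at 9.66 and 7.62, holds its composite outside the central 200 bp and is not among the 38. These 4 printed examples were lower in mitotic cells, with log2 M/A from −0.69 to −0.34, and do not stand for the 36. The full octamer of OCT4, ATGCAAAT, was found at 58 sites, with a median of 0.33.

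In base composition the sites lay between distal sites and promoters at large. Median GC content of the central 200 bp was 49.5%, beside 46.0% at distal sites and 56.5% in coding promoters. The median CpG count was 5, beside 1 and 8. A GC box (GGGCGG) was found at 16.7%, beside 4.76% and 40.1%. An ETS element (CCGGAAG) was found at 6.83%, beside 1.25% and 8.29%. A CCAAT box was found at 32.4%, beside 24.7% and 29.6%. The other elements searched were rare, with the E-box CACGTG at 3.78%, the NRF1 element GCATGCGC at 1.34%, the CRE TGACGTCA at 1.22% and the YY1 element AAGATGGCG at 0.488% of sites. Median log2 M/A with and without the element was 0.57 and 0.41 for the GC box, 0.54 and 0.37 for the CCAAT box and 0.28 and 0.44 for the ETS element. For the E-box it was 0.92 at 29 measured sites and 0.43 at the others, and for the YY1 element 1.25 at 4 sites and 0.43 at the others. The E-box difference was thus close to that of the SOX motif and the YY1 difference larger, on far fewer sites.

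Distance to the start made a small difference. Sites over a start had medians of 11.6 in A and 14.7 in M and a log2 M/A of 0.45. Those 1 to 250 bp away had 12.0, 15.9 and 0.57, those 251 to 500 bp away 8.19, 10.8 and 0.33, and those 501 to 1000 bp away 8.50, 10.4 and 0.31. Sites with the midpoint upstream had a 2-fold deficit in 6.85% of cases, and those with the midpoint downstream in 16.2%, beside 10.0% over all SOX2 sites. In the same order, a 2-fold excess was found at 30.8% and 28.7%, and the median log2 M/A was 0.45 and 0.32. Among the 10 sites centred in coding sequence, 5 of the 9 measured had a 2-fold deficit, beside 10.0% over all SOX2 sites. They include the repeat site at Gm10719 and the histone gene Hist2h2bb, whose reads may come from copies. The 46 sites just inside the limit, 901 to 1000 bp from a start, had medians of 7.64 in A, 13.2 in M and 0.44 in log2 M/A. The 53 just outside it, 1001 to 1100 bp away, had 11.0, 13.8 and 0.30.

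Core pluripotency transcription factors had coding-start sites at 7 of 22 genes (31.8%), beside 3.87% of all coding genes. Their 8 sites had a median log2 M/A of −0.27, with 6 lower and 2 higher in mitotic cells, beside 36.6% lower and 63.4% higher over all SOX2 sites. Zfp42, which encodes REX1, was highest, at 60.6 in A and 50.1 in M. Nr5a2, an orphan nuclear receptor, was at 47.9 and 35.4. Sall4, a zinc finger factor of the inner cell mass, was at 23.1 and 30.9. Esrrb, the estrogen-related receptor of naive cells, was at 26.8 and 25.6. The 2 sites of Zscan10, a zinc finger partner of the network, were at 24.9 and 13.1 and at 6.51 and 5.42. The only 2-fold difference was at Prdm14, a repressor of differentiation genes, with 8.41 in A and 18.5 in M. Its interval of 99 bp lay 950 bp upstream of the start. Over all SOX2 sites 26.8% had a 2-fold excess and 10.0% a 2-fold deficit. Zscan10, Prdm14 and Nanog fall outside the rule for named genes here and were added after their values had been seen. A SOX motif was found in the central 200 bp of 3 of the 8 sites.

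The list of OCT4-SOX2 target genes had sites at 12 of 32 genes (37.5%). Their 14 sites had a median log2 M/A of 0.01, with 7 higher and 7 lower in mitotic cells, beside the same shares over all sites. Mkrn1, a ubiquitin ligase, was at 45.5 in A and 99.1 in M and was the only 2-fold difference. Over all SOX2 sites 26.8% had such an excess and 10.0% a 2-fold deficit. Upp1, uridine phosphorylase, was at 43.1 and 52.7. The upstream site of Dppa2, the partner of DPPA4, was at 41.0 and 50.4. Trp53bp1, a DNA damage response protein, was at 35.8 and 50.0. Tdgf1, the NODAL coreceptor Cripto, was outside the 4 highest and was at 41.4 and 34.2. Membership of these 2 lists rests partly on earlier maps of SOX2 binding, so their high share of genes with a site is no independent evidence.

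**Figure D5:**
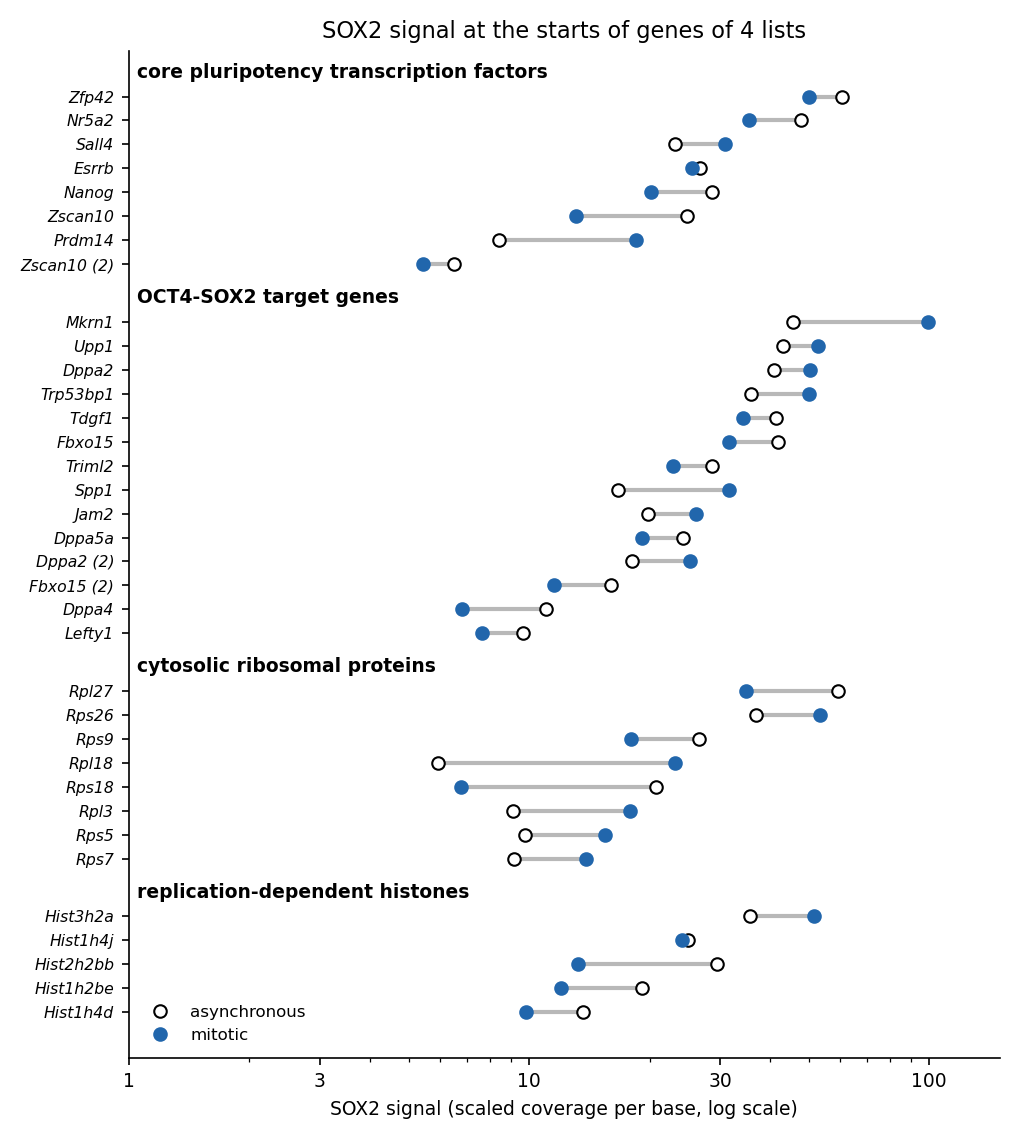
SOX2 signal (scaled coverage per base, log axis) in asynchronous cells (open circles) and mitotic cells (blue circles) is drawn for each coding-start site of 4 gene lists, with (2) marking a gene's second site. Blue lies left of the open circle at 6 of 8 sites of core pluripotency factors, 7 of 14 of OCT4-SOX2 targets, 3 of 8 of ribosomal proteins and 4 of 5 of histones.

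Of the other regulators, listed with the same 3.87% of all coding genes for comparison, lineage regulators had 2 of 41 genes (4.88%), Otx2 at 28.9 in A and 25.7 in M and Hoxb1. Chromatin regulators had 3 of 36 (8.33%). Mtf2, an accessory subunit of the Polycomb complex PRC2, was at 26.0 and 53.0, Tet1, a 5-methylcytosine dioxygenase, at 25.8 and 15.7, and Ezh2, the PRC2 methyltransferase, at 7.54 and 3.71. Of these PRC2 genes, Mtf2 was 2-fold higher and Ezh2 2-fold lower in mitotic cells, both barely past that limit (log2 M/A 1.03 and −1.02). The Ezh2 interval was only 24 bp wide and lay 961 bp upstream of the start. Signalling genes had 5 of 38 (13.2%), namely Tdgf1, Lefty1, the NOTCH ligand Jag1 at 28.0 and 27.7, the receptor Notch1 at 6.86 and 9.67, and Ctnnb1, which encodes β-catenin, at 2.27 and 10.7. Ctnnb1 was outside the 4 highest and was added after its values had been seen.

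Cell cycle and mitosis genes had 2 of 47 (4.26%). The site shared by Kif20a, a kinesin of cytokinesis, and Brd8 was at 40.5 and 32.5. An interval of 49 bp shared by the mitotic kinase gene Aurka and Cstf1 was at 1.50 and 10.5. Its A was below the lower quartile of coding-start sites. Immediate early genes had 3 of 20, and all 3 sites were higher in mitotic cells, as were 63.4% of all SOX2 sites. Egr3 was at 31.3 and 49.0, Egr2 at 3.26 and 8.46, and Fos at 4.59 and 6.61. From the SOX and POU family only Pou2f3, a factor of tuft cells and epidermis, had a site in this set (1 of 34), at 6.90 and 19.3. None of the lists counts HSF-overlapping or distal sites, so a gene without a site here may still have a SOX2 site.

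Of the housekeeping lists, cytosolic ribosomal proteins had 8 of 83 genes (9.64%), with 5 sites higher and 3 lower in mitotic cells (beside 63.4% higher over all SOX2 sites) and log2 M/A from −1.62 to 1.97. Rpl27 was at 59.3 in A and 34.8 in M, Rps26 at 36.9 and 53.4, Rps9 at 26.5 and 17.9, and the site shared by Rpl18 and the sphingosine kinase gene Sphk2 at 5.93 and 23.2. Replication-dependent histones had 5 of 67 (7.46%), with a median of −0.48 and 4 of 5 sites lower in mitotic cells, beside 36.6% lower over all SOX2 sites. Hist3h2a was at 35.7 and 51.6, Hist1h4j at 25.0 and 24.1, Hist2h2bb at 29.6 and 13.2, and Hist1h2be at 19.1 and 12.0. Histone genes exist in near-identical copies, so reads may be shared between them.

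The mitochondrial ribosome and respiratory chain had sites at 10 of 167 genes (5.99%). Of their 9 sites 6 were higher in mitotic cells, near the 63.4% over all SOX2 sites, among them Ndufv1 of complex I at 28.2 and 29.9, Mrps12 of the small ribosomal subunit at 15.9 and 21.4 and the site of Uqcr10, a subunit of complex III, and Zmat5 at 16.7 and 19.9. Cox8a of complex IV was at 39.8 and 31.5. Translation factors had 2 of 68, Eif4e1b, an oocyte form of the cap-binding protein, at 29.8 and 65.5, and Eef1g, an elongation factor subunit, at 9.13 and 6.95. Chaperones had 2 of 90, the J-domain genes Dnajc6 at 11.2 and 10.3 and Dnajb14 at 11.0 and 9.48, after exclusion of HSF-overlapping sites.

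Zfp zinc finger genes gave the longest list, with 31 of 394 genes (7.87%) and 31 sites. Of 30 measured sites 20 were higher and 10 lower in mitotic cells, with a median log2 M/A of 0.37. A 2-fold excess was found at 9 and a 2-fold deficit at 4. Over all SOX2 sites the shares were 63.4% higher, 26.8% with the excess and 10.0% with the deficit, so these counts were near the background. Zfp568, a repressor of retroelements and of Igf2, was at 38.8 in A and 84.5 in M, Zfp710 at 23.8 and 67.8, and Zfp182 at 35.3 and 53.1. Protocadherins had 2 of 68, Pcdhga3 at 14.6 and 25.3 and Pcdhga12 at 12.6 and 19.7. Olfactory and vomeronasal receptors, the odorant and pheromone receptors of sensory neurons, had 1 of 1464 genes, Olfr13 at 5.09 and 2.64.

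The measured sites of one gene could differ. There were 29 genes with more than 1 coding-start site, and the median range of log2 M/A within a gene was 0.73. Ccdc116 and Ydjc share the same sites and are counted separately among the 29. At Sulf1, a heparan sulfatase, the site upstream was at 29.6 in A and 27.3 in M, and the one downstream at 0.295 and 9.33. The A of the downstream site was far below the lower quartile of coding-start sites (4.78), so its log2 M/A of 4.98 rests on a very weak signal. At Utrn, which encodes utrophin, the 2 sites had log2 M/A of 0.01 and 0.03. Both genes were chosen after their values had been seen, as the widest and the narrowest range.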

How the data were processed

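CUT&Tag libraries of SOX2 (2 asynchronous, 2 mitotic) were sequenced by the authors, aligned to mm10 with Bowtie2 with PCR duplicates kept, and scaled with deepTools to reads of the Drosophila spike-in (dm6). The deposited signal is the mean of this coverage per base over each SOX2 interval, averaged over the libraries of a phase. SOX2 intervals came from the literature. HSF1 and HSF2 tables were used only for their intervals, and the separate site lists were not used. All columns used could be mapped (0 unmapped).

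Starts were those of protein-coding transcripts in GENCODE M21 basic. log2 M/A was taken without a pseudocount where both signals exceeded 0. Motifs were searched on both strands in the central 200 bp of each interval in the GRCm38.p6 sequence, which has the coordinates of mm10, and in the 200 bp upstream of 41493 starts. The printed composites were searched over the whole interval. A median's 95% interval came from binomial order statistics and a share's from Wilson's method. The calculations were tested on simulated data. Python 3.11.15, numpy 2.4.6, pandas 2.3.3, scipy 1.17.1, pyfaidx 0.9.0.4 and matplotlib 3.10.9 were used.

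Named sites were the 10 highest by mean of A and M, the 6 largest differences in each direction among sites at or above the median mean, and up to 4 of the highest sites in each of 16 gene lists. A site was named by the nearest coding start, and 1 of the 10 highest is not reported here. The members, the lists and the split by motif were chosen with earlier results of these data known. No test between phases was possible, since the columns are averages.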

Additional observations from a re-analysis of the deposited data

How the results depend on the processing

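Of 52 recalculations, 44 stayed within the interval over sites of the value reported and 8 moved outside it. Neither the log2 M/A values nor the differences between medians changed sign. The shares, R2 and the median A have no sign that could change. Centring shifts every site by one amount, so the difference of 0.10 from the other SOX2 sites could not move, and it is counted among the 44. Centring on the lowest quartile of all SOX2 sites by mean signal took the median log2 M/A to 0.17, the share with a 2-fold mitotic excess to 22.3% and that with a 2-fold deficit to 13.3%. A pseudocount of 1 moved the deficit share to 6.34%. Sites over a start alone had a median A of 11.6. R2 on linear values was 0.309. The looser motif CAANG was found at 89.8% of sites. Taking log2 of the ratio of mean signals gave 0.49, and 0.64 without the 2 repeat sites of chromosome 9. The removal of these 2 sites, the removal of intervals of 50 bp or less (median 0.39) and all recalculations of the motif difference of 0.53 were chosen after seeing the data. The motif difference ranged from 0.32 to 0.60. No paired analysis was possible because the deposited columns are averages over the libraries of a phase, and for the same reason no library could be left out. Read totals of the SOX2 libraries were not used here, and the values carry none, so the limit of depth on weak sites was not given.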
